A study of Danio rerio with 12 samples.

Results

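The genes described here carry symbols of the DNA replication and cell division machinery. They were chosen by symbol alone: every probe set with 1 gene symbol beginning as an MCM, ORC, CDC, GINS, RFC, RRM, CDK, AURK, BUB or PLK family name, as PCNA or TOP2, as a DNA polymerase alpha, delta or epsilon subunit, or as an A, B, D or E type cyclin. Of 15617 probe sets on the array, 10795 had 1 symbol, and 116 of those matched, for 87 genes. Where a gene had several probe sets (17 genes), the one with the highest mean signal stood for it. The symbol pattern also takes genes that are named for yeast cell cycle mutants or for kinase families but mainly act elsewhere, and 22 of the 87 were set apart as such.

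RNA was measured on Affymetrix zebrafish arrays in 12 libraries, each from a pool of about 30 whole wild-type larvae collected 96 hours post fertilization (hpf). Chemicals were added to the medium between 72 and 96 hpf, and every group, the control included, received 0.1% DMSO as solvent. The 4 labelled groups have 3 libraries each: DMSO alone, 0.1 µM estradiol (E2), 1 nM of the dioxin TCDD, and 0.1 µM E2 with 1 nM TCDD. Values are MAS5 signals, the brightness of a probe set on a linear scale, and they show no cell type: in whole larvae, fewer dividing cells and less RNA per dividing cell cannot be told apart.

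Each library also has a description code made of a number and a letter. The DMSO libraries are W248C, W248B and W249B, the E2 libraries W249C, W252B and W255B, the TCDD libraries W252C, W357B and W358B, and the E2+TCDD libraries W255C, W362B and W365B. The response genes did not follow these titles. The signal of cyp1a, the monooxygenase induced through the aryl hydrocarbon receptor that binds TCDD, lay between 20170 and 23173.2 in both W252 libraries, both W255 libraries, W362B and W365B, and between 263.9 and 414.7 in the other 6. Brain aromatase, the estrogen-inducible cyp19a1b, had signals between 255.9 and 296.5 in both W249 and both W255 libraries, W358B and W365B, and between 36.1 and 70.1 in the rest. The titles of 6 of the 8 letter B libraries go against at least 1 of these genes, so a library is called by its title or its code below, and no exposure is read from a code. Comparisons were made by title in all 12 libraries, by title in the 6 libraries labelled DMSO or E2+TCDD, and by number in the 8 libraries whose number occurs in both letters. The comparisons by title share the DMSO libraries.

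Replication of the genome starts at sites bound by the origin recognition complex (ORC), where Cdc6 helps to load the ring of MCM proteins that becomes the replicative helicase. The kinase Cdc7 and the cyclin-dependent kinases then turn the loaded ring into a working helicase with Cdc45 and the GINS complex. Polymerase alpha primes the new strands, polymerases delta and epsilon extend them, and the sliding clamp PCNA, set on DNA by replication factor C (RFC), holds the polymerases in place. Cyclins A, B, D and E and their kinases order the phases, and Aurora and Polo-like kinases, the Bub checkpoint proteins and the anaphase-promoting complex govern chromosome segregation. In zebrafish larvae of this age dividing cells are found among other places in the retinal margin, the brain, the gut and the blood-forming tissue. These roles are known mostly from yeast and mammals.

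By role, 8 of the 87 genes were grouped with the helicase: mcm2 to mcm7, which encode its ring, and mcm6l and mcm9, placed there by name. Another 13 act in origin licensing and firing (orc1 to orc6, cdc6, cdc7, cdc45 and gins1 to gins4). Then 13 are polymerase subunits, the clamp or its loader, and 3 supply deoxynucleotides (rrm1, rrm2b and rrm2l, named for ribonucleotide reductase subunits). A further 15 are cyclins, their kinases and direct regulators, 13 act in mitosis, and the 22 set apart include cdc42 and its effectors, the Hsp90 co-chaperone cdc37, the splicing factor cdc5l, the neuronal kinase cdk5 and the transcription kinases cdk8, cdk9 and cdk13. After probe sets under the 25th percentile of mean log2 signal were left out, 81 of the 87 genes remained for testing. The 6 left out, bub1bb, ccna1, ccnb1l, cdk5rap2, mcm6l and mcm9, had no signal above 44.9 in any library. Of 33 core genes fixed for description, 27 have a member, and mcm10, rfc2, rrm2, ccne2, aurkb and bub1 were not analysed here.

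On the log2(signal + 16) scale, on which all differences are given, the distance from the lowest to the highest of the 12 libraries had a median of 0.57 over the 81 tested genes, beside 0.65 over all 11626 probe sets tested. The narrowest range was 0.26 for cdk1, the kinase that drives entry into mitosis, whose signal stayed between 623.7 and 750. The widest was 1.46 for mcm6, followed by cdc7, top2a, cdc6 and rfc5. Mean signals of the tested genes ran from 83.4 for cdc7 to 5352.5 for pcna, with ccnd1 (cyclin D1) at 3839.6, and as these are different probe sets they give no order of transcript levels.

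**Figure D1:**
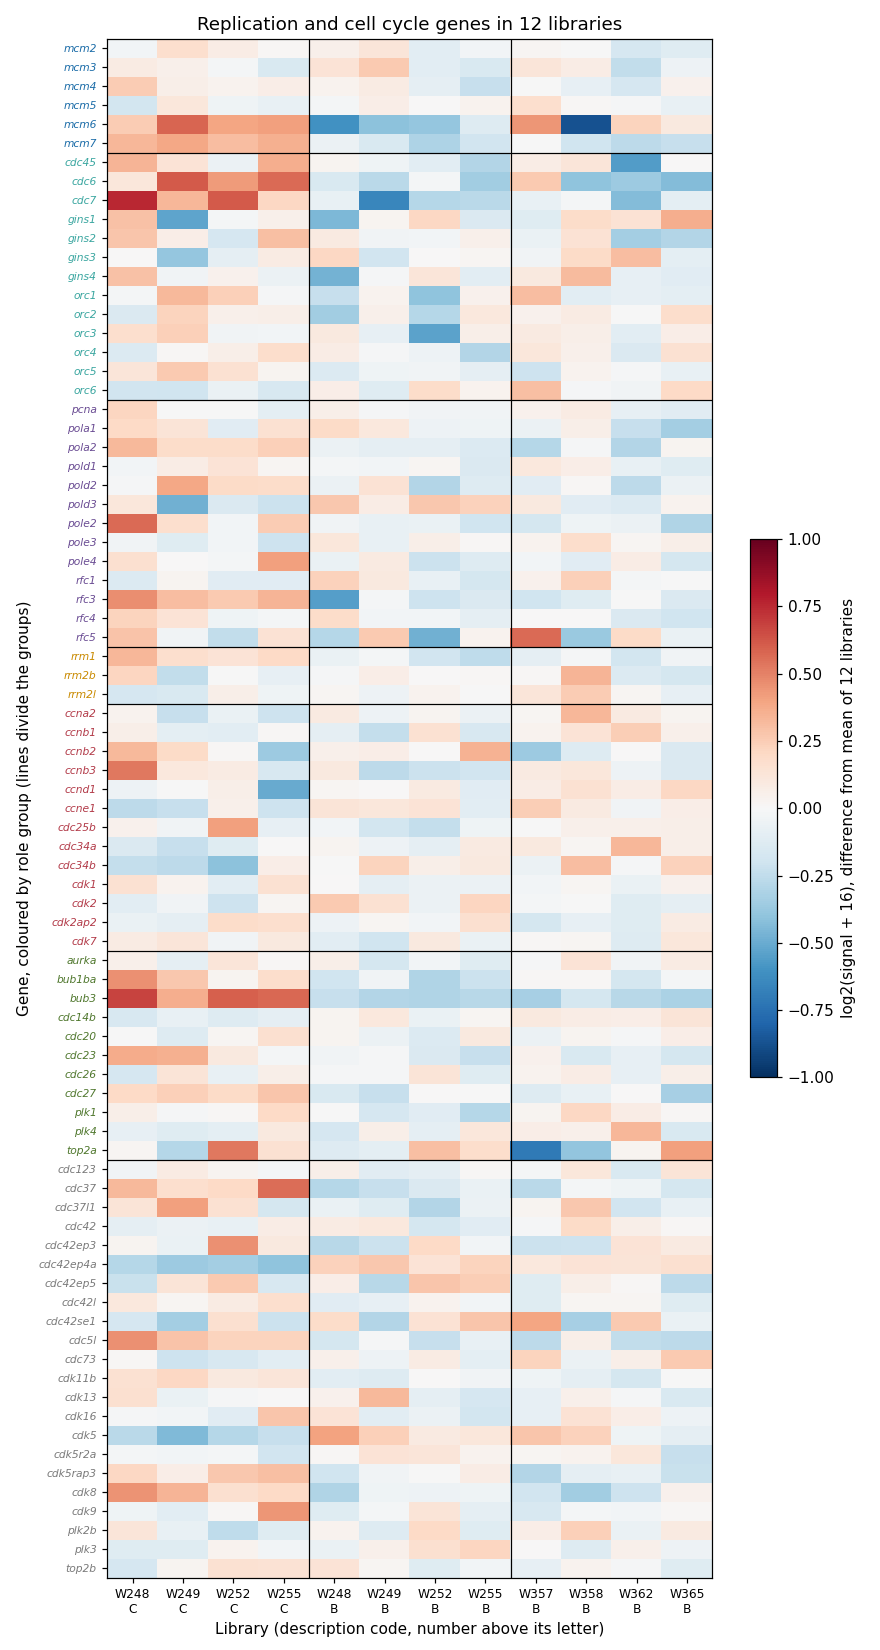
Each row is 1 of the 81 tested genes and each column 1 of the 12 libraries, by description number and letter. Colour gives the gene's log2(signal + 16) minus its own mean over the 12 libraries, from blue (lower) to red (higher), and row labels are coloured by role. Rows such as bub3, mcm7 and cdc7 are red in the 4 letter C libraries, and no block of rows follows the numbers.

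No replication or cell cycle gene passed the test for a labelled exposure. In the fit to all 12 libraries, with the letter as a term, limma called 0 of 81 genes for E2 against DMSO (0% of all probe sets tested), 0 for TCDD against DMSO (0%) and 0 for E2+TCDD against DMSO (0.0602%) at an adjusted p under 0.05. At an unadjusted p under 0.05 the counts were 5 genes (6.17%, against 6.62% of all probe sets), 1 gene (1.23%, against 9.58%) and 5 genes (6.17%, against 11.6%). The median differences of the 81 genes were -0.04, 0.01 and 0.00, and those of all probe sets tested 0.00 in each. The intervals show what this could miss: the middle gene's 95% interval reached 0.24 to either side of its estimate, and in the comparison with E2+TCDD the farthest interval bound was 1.05. These comparisons take the titles as given, which the marker genes contradict for 6 libraries. Within letter B, the libraries labelled TCDD or E2+TCDD are W357B to W365B and those labelled DMSO or E2 are W248B to W255B. For TCDD and E2+TCDD against DMSO, title and number series cannot be told apart there.

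The genes with the smallest p are given as values. For E2 against DMSO they were cdc42ep5, an effector of Cdc42 (0.36, adjusted p = 0.73), the transcription kinase gene cdk13 (-0.29) and mcm3 (-0.23). For TCDD against DMSO they were rrm2l (0.21, SE 0.073, adjusted p = 0.362), the Cdk-activating phosphatase gene cdc25b (0.21) and ccnb2, a cyclin B gene (-0.31). For E2+TCDD against DMSO they were mcm3 (-0.31, adjusted p = 0.204), pcna (-0.19) and the clamp loader gene rfc4 (-0.25). All of these are limma values with Benjamini-Hochberg adjustment over 11626 probe sets, and none passed. Dimmer tested probe sets had the opposite sign for mcm3 (0.19 for E2 and 0.04 for E2+TCDD) and for cdc25b (-0.17 and -0.07 for TCDD). Those of cdk13 went both ways for E2 (0.10 and -0.06). The sign was the same for cdc42ep5 (0.20 for E2) and rfc4 (-0.05 for E2+TCDD).

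The 6 libraries labelled DMSO or E2+TCDD are the ones that cyp1a parts as titled. By cyp19a1b each side was mixed: W249B, labelled DMSO, was high at 287, and W362B, labelled E2+TCDD, was low at 36.1. In letter B this split by title is also one by number series, W248B and W249B against W362B and W365B. Title and series cannot be told apart there. In these 6 libraries limma called 0 of 81 genes, beside 1.57% of all probe sets, and 7 genes had an unadjusted p under 0.05 (8.64%, against 14.2%). The difference of mcm3, a helicase subunit, was -0.31 (SE 0.091, 95% interval -0.51 to -0.11, adjusted p = 0.14, limma), that of mcm6 0.50 (adjusted p = 0.211) and that of pcna -0.19 (adjusted p = 0.212). The dimmer of the tested mcm3 probe sets differed by 0.04 (SE 0.158, adjusted p = 0.942, limma). The signals of the 3 libraries of each title did not overlap for 8 genes (9.88%, against 11% of all probe sets): ccnb2, cdk13, mcm3, pcna, pold3 and rrm2b lay lower in E2+TCDD, and cdc42ep3 and top2a higher. For pcna the E2+TCDD libraries held 4927.2, 4985.9 and 5051.2, and the DMSO libraries 5288.3, 5553.5 and 6219.3. The highest of these was W248C.

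Number against number within both letters gave the same count. In the 8 libraries with a number in both letters, limma called 0 of 81 genes for W249 against W248 (0.0172% of all probe sets), for W252 against W248 (1.66%), for W255 against W248 (1.17%) and for the mean of W252 and W255 against the mean of W248 and W249 (2.58%). At an unadjusted p under 0.05 the first 3 of these comparisons had 3 genes (3.7%, against 4.05% of all probe sets), 4 genes (4.94%, against 11%) and 4 genes (4.94%, against 9.71%). In the last, 4 libraries against 4, 5 genes had an unadjusted p under 0.05 (6.17%, against 12.2%). The median difference was -0.02 beside -0.01 for all probe sets, 46 of 81 genes (56.8%) lay below 0 beside 53.3% of all probe sets, and every gene's 95% interval stayed within 0.743 of 0 on the log2 scale. The contrast of differences, W255 minus W252 minus W249 plus W248, also had 0 of 81 called (0% of all probe sets), with 1 gene at an unadjusted p under 0.05 (1.23%, against 5.13%).

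By role, the medians in this comparison of numbers were small. The 6 tested helicase genes had a median of -0.09 with 5 below 0, and the 13 polymerase, clamp and loader genes a median of -0.11 with 10 below 0. The medians were -0.01 for origin genes, -0.02 for nucleotide supply, 0.02 for cyclins and kinases, 0.02 for mitosis and -0.02 for the genes set apart. Of the 59 tested genes with replication or cell cycle roles, 34 lay below 0 (57.6%).

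**Figure D2:**
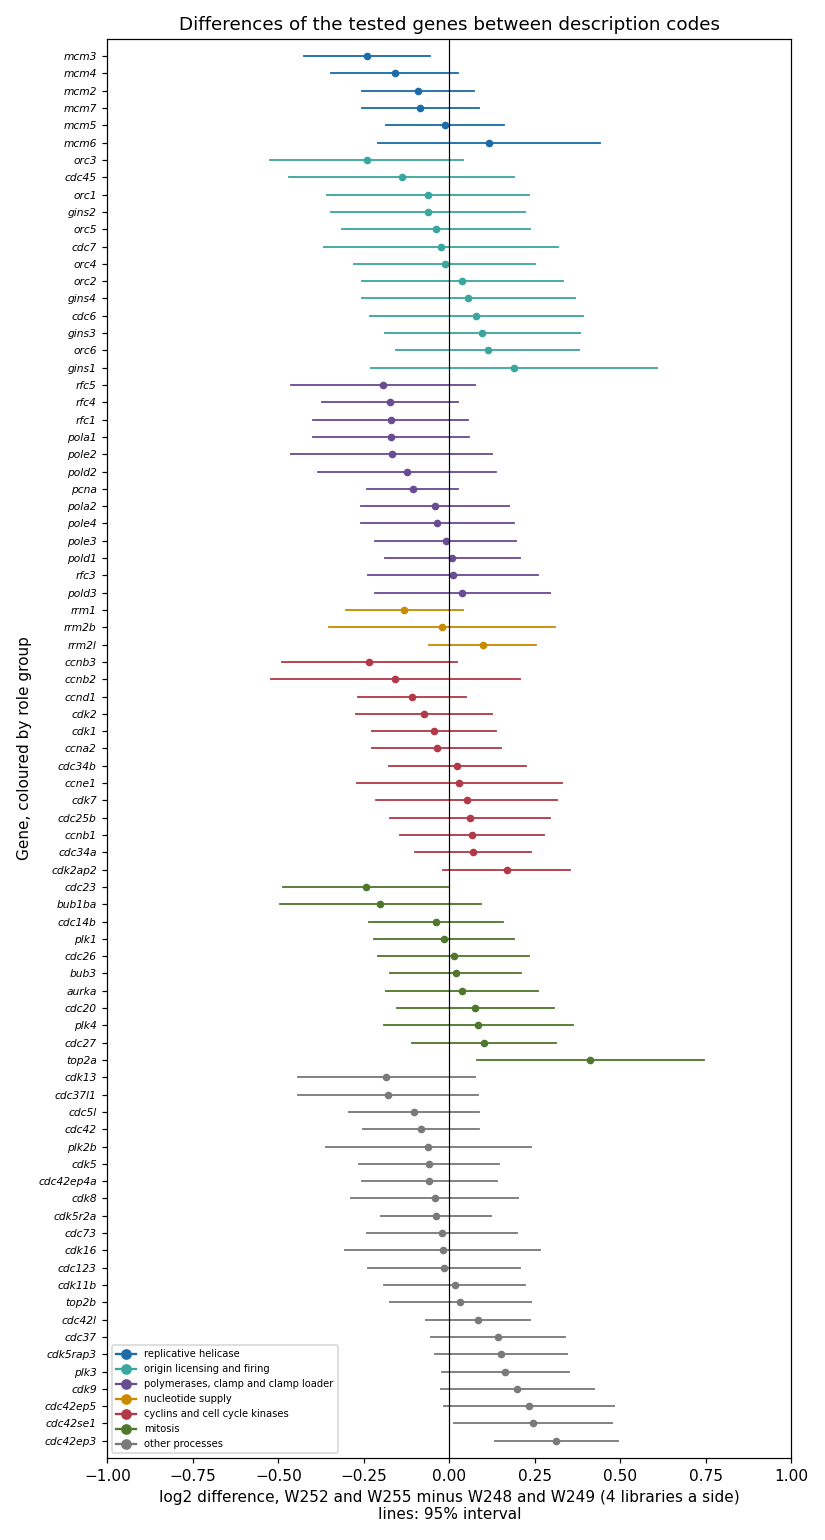
Points give the log2 difference of each of the 81 tested genes between the 4 libraries coded W252 or W255 and the 4 coded W248 or W249, lines its 95% interval and colours its role. Most lines cross 0, mcm3 lies at -0.24, top2a at 0.41 and cdc42ep3 at 0.31, and none passed the test after adjustment.

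Among the helicase genes, mcm3 had the smallest p in this comparison. Its signal was 696.4 in W248C, 724.5 in W248B, 680.2 in W249C and 788.8 in W249B. It was 647 in W252C, 609.2 in W252B, 588.6 in W255C and 588.7 in W255B. All 4 W252 and W255 libraries lay below all 4 others, with means of 608 ± 27.5 and 722 ± 47.9 (SD, n = 4 each), and the difference was -0.24 (SE 0.086, 95% interval -0.42 to -0.06), with an adjusted p of 0.219 (limma). The 4 libraries outside this comparison held 715.7 in W357B, 693 in W358B, 551.8 in W362B and 631.5 in W365B. So the 6 libraries with a cyp1a signal over 5000 spanned 551.8 to 647 and the other 6 spanned 680.2 to 788.8, a description of libraries parted by a measured gene and not a test. Of the 81 genes, 2 (2.47%, against 1.75% of all probe sets) did not overlap between these libraries, mcm3 and top2a, and for cyp19a1b, parted at a signal of 150, it was 0 genes (0%, against 0.0602%).

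A second mcm3 probe set, with a mean signal of 139.82, had a difference of -0.09 (SE 0.153) in the same comparison, and its signals in the cyp1a-high and cyp1a-low libraries overlapped. It differed by -0.65 between letters (adjusted p = 0.00599, limma), where the brighter probe set differed by 0.05 (adjusted p = 0.725). The larger difference was thus by number for the brighter probe set and by letter for the dimmer one.

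The other helicase genes had no adjusted p under 0.05 by number. The signal of mcm2 ran from 1018.6 to 1293.6 over the 12 libraries, that of mcm4 from 544 to 766.1 and that of mcm5 from 737.4 to 944. Their differences were -0.09, -0.16 and -0.01, with adjusted p of 0.72, 0.506 and 0.975 (limma). For mcm7 the difference was -0.09 and for mcm6 0.11, and both of these genes changed with the letter.

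In top2a, which encodes the topoisomerase that untangles sister chromosomes, the difference ran the other way. Its signal was 84.1 in W248C, 74.7 in W248B, 65.4 in W249C and 76.6 in W249B, and 126.7 in W252C, 106.1 in W252B, 94.2 in W255C and 95.8 in W255B. It was 44.5 in W357B, 59.1 in W358B, 84.6 in W362B and 115.3 in W365B. The cyp1a-high libraries lay at or above 84.6 and the others at or below 84.1, a gap of 0.5 in signal. The difference by number was 0.41 (SE 0.155, 95% interval 0.08 to 0.74, adjusted p = 0.245, limma). The second tested top2a probe set gave -0.44 (SE 0.174, adjusted p = 0.289), the opposite sign. A further 3 top2a probe sets had mean signals of 18 to 22.733 and were not tested. Over all genes with several probe sets, 18 further probe sets were tested, and 6 of them shared the sign of the brightest in this comparison.

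Among the genes of DNA synthesis, pcna differed by -0.11 (95% interval -0.24 to 0.03, adjusted p = 0.547, limma), with means of 5183 ± 140 in W252 and W255 and 5595 ± 432 in W248 and W249 (SD, n = 4 each). The differences of pola1, the catalytic subunit of polymerase alpha, and of rfc4 were -0.17 each (adjusted p = 0.583 and 0.495). Over the 12 libraries the signal of pold1, the catalytic subunit of polymerase delta, ran from 370.8 to 453.6, that of pole2, a polymerase epsilon subunit, from 105.9 to 206.9, and that of rfc5 from 227.7 to 487.5. For rrm1, the large subunit of ribonucleotide reductase, the difference was -0.13 (adjusted p = 0.567). None of these genes passed the test by number.

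The origin genes had wide ranges over the libraries and small differences by number. The signal of orc1 ran from 114.1 to 199.3, that of cdc45 from 61.2 to 130.2, that of gins1 from 59.2 to 123.5 and that of gins2 from 99.5 to 164. The differences by number were -0.06 for orc1, -0.14 for cdc45 and 0.08 for cdc6 (adjusted p = 0.918, 0.8 and 0.897, limma). In W252 against W248, orc3 differed by -0.42 (SE 0.187, adjusted p = 0.419).

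Of the cyclins and kinases, ccna2 (cyclin A2) held 439.7 to 657.3 over the 12 libraries, ccnb1 441.6 to 625.3 and cdk2 361.3 to 505.1. Their differences by number were -0.04, 0.07 and -0.07, and that of cdk1 was -0.04 (adjusted p = 0.925, 0.861, 0.832 and 0.902, limma). One cyclin B gene, ccnb3, was among the smallest p in 3 comparisons that share the libraries coded W248: -0.39 in W249, -0.37 in W252 and -0.48 in W255 (adjusted p = 0.999, 0.436 and 0.321). It held 287.1 in W248C and 209.1 in W248B, and the former is the highest ccnb3 signal of all 12 libraries. A dimmer tested ccnb3 probe set, with a mean signal of 80.792, differed by -0.36 in W249, 0.08 in W252 and 0.002 in W255.

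For ccnd1, the cyclin of the G1 phase, the contrast of differences was -0.40 (SE 0.148, adjusted p = 0.936, limma). A single library was low, with 2678.7 in W255C, where W255B held 3530.1 and the other 10 libraries 3688 to 4408. A second ccnd1 probe set held 1884.1 in W255C and 1754 in W255B, within its range of 1685.2 to 2061.1 over the 12 libraries. These mitosis genes had small differences by number: aurka (Aurora A) held 234.9 to 295.7, cdc20, an activator of the anaphase-promoting complex, 223.2 to 278.1, and plk1 437.4 to 623 over the 12 libraries, with differences of 0.04, 0.08 and -0.02.

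The smallest adjusted p of the 81 genes in the comparison by number belonged to cdc42ep3, a Cdc42 effector that acts on the cytoskeleton and is no cell cycle gene by role. Its signal was 643.2 in W248C, 517.7 in W248B, 600 in W249C and 540.4 in W249B, and 867.9 in W252C, 724 in W252B, 676.2 in W255C and 616.3 in W255B. The difference was 0.31 (SE 0.084, adjusted p = 0.0734, limma), and 0.45 for W252 against W248 (adjusted p = 0.0926). The groups overlap, since W255B lay below W248C.

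**Figure D3:**
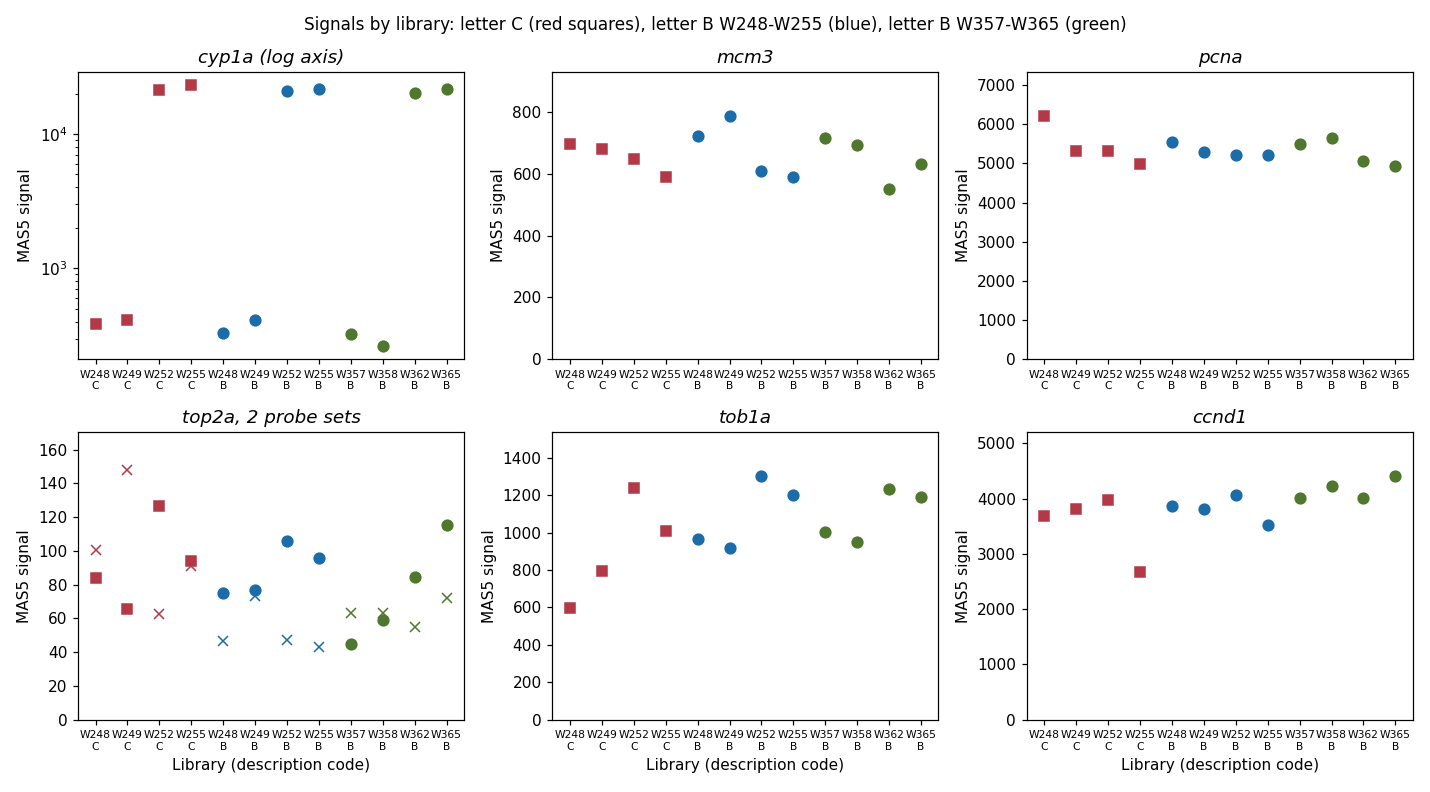
MAS5 signal in each library for cyp1a (log axis), mcm3, pcna, top2a, tob1a and ccnd1, with red squares for letter C, blue circles for letter B libraries W248B to W255B and green circles for W357B to W365B. Crosses in the top2a panel are its second tested probe set. The mcm3 signals of the 6 cyp1a-high libraries, 551.8 to 647, lie below the other 6, and the 2 top2a probe sets differ by 0.41 and -0.44 in the comparison by number.

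The 4 libraries W357B to W365B were compared by title in a fit chosen after the data were seen, 2 labelled E2+TCDD against 2 labelled TCDD. This split is also that of cyp1a, with 20170 in W362B and 21509.5 in W365B against 323.8 in W357B and 263.9 in W358B. By cyp19a1b each side was mixed, with 36.1 in W362B and 256.4 in W365B against 52.1 in W357B and 256.9 in W358B. No effect of E2 is therefore read from this comparison of titles. Again 0 of 81 genes were called, beside 0.791% of all probe sets, and 6 had an unadjusted p under 0.05 (7.41%, against 10.1%). The differences were 0.32 for cdc42ep3, 0.77 for top2a and -0.32 for cdk5 (adjusted p = 0.257, 0.267 and 0.289, limma), -0.25 for mcm3 and -0.16 for pcna. Signals did not overlap for 24 genes (29.6%, against 40.8% of all probe sets), 21 lower and 3 higher in the libraries labelled E2+TCDD. The share of all probe sets is not split by direction here, so no shared fall is read from the 21. Of the 81 genes, 54 (66.7%) lay below 0, beside 53.5% of all probe sets.

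Within letter B, the 4 libraries W357B to W365B were also set against the 4 libraries W248B to W255B. All of the former are labelled TCDD or E2+TCDD and none of the latter, so number series and labelled TCDD cannot be told apart here. limma called 0 of 81 genes (0.447% of all probe sets), and 6 had an unadjusted p under 0.05 (7.41%, against 14.7%). The kinase gene plk1 held 540.9 to 623 in the later series and 437.4 to 535 in the earlier one, without overlap. Its difference was 0.22 (SE 0.079, adjusted p = 0.222, limma). The next smallest p belonged to pold3 (-0.24) and cdk2 (-0.20), neither of which passed. In all, 2 genes (2.47%, against 8.23% of all probe sets) did not overlap, cdc25b and plk1, both higher in the later series. The brightest cdc25b probe set differed by 0.16 here, and its dimmer tested probe sets by -0.07 and 0.05.

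Some of these genes passed the test between letters. The letter is taken here as the batch, an inference from the series text, which names 2 batches of hybridisation without saying which library fell in which. In the 8 libraries with a number in both letters, limma called 18 of 81 genes between letter B and letter C (22.2%, against 29.6% of all probe sets), 4 higher in letter B (4.94%, against 14.7%) and 14 lower (17.3%, against 14.9%). The median difference of the 81 genes was -0.08, beside 0.00 for all probe sets, and 64.2% lay below 0, beside 49.8%. The count rests on the brightest probe set of each gene. Of the 18 further probe sets tested, those of mcm3 (-0.65), top2a (-0.74), cdc25b (-0.63), cdc42 (-0.58 and -0.65), cdk11b (-0.47) and cdc42ep5 (-0.36) were called where the brightest were not.

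The largest drop was in bub3, a protein of the spindle checkpoint. Its signal was 765.8, 615.7, 723.7 and 714.9 in W248C, W249C, W252C and W255C, and 400.8, 384.7, 381.4 and 387.8 in W248B, W249B, W252B and W255B. The letters were far apart with no overlap, and the difference was -0.83 (SE 0.090, adjusted p = 4.29e-05, limma). The libraries W357B to W365B, which the fit did not use, held 372.3 to 418.7. The second bub3 probe set fell by 0.74 on the log2 scale (adjusted p = 0.000856).

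Of the helicase genes, mcm6 and mcm7 were lower in letter B. The signal of mcm7 was 987.9 to 1044.1 in letter C and 638.5 to 760.1 in letter B, a difference of -0.52 (SE 0.080, adjusted p = 0.000421, limma), and 659.3 to 790.9 in W357B to W365B. That of mcm6 was 115.2 to 148.8 in letter C and 56.2 to 84.8 in letter B (-0.79, SE 0.152, adjusted p = 0.00182), but 44 to 133.2 in W357B to W365B, which overlaps letter C. The brightest probe sets of the remaining 4 tested helicase genes were not called between letters.

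The origin genes cdc7 (-0.80) and cdc6 (-0.63) were lower in letter B, with adjusted p of 0.00242 and 0.00579 (limma). Lower too were rfc3 of the clamp loader (-0.58), pola2 of polymerase alpha (-0.33), rrm1 (-0.34), and the mitosis genes bub1ba (-0.42) and cdc27 (-0.32), the latter a subunit of the anaphase-promoting complex. Higher in letter B were pold3 of polymerase delta (0.39) and cdc34b, named for a ubiquitin-conjugating enzyme of the cell cycle (0.31). The other 6 called genes belong to those set apart: cdc37 (-0.49), cdc5l (-0.42), cdk8 (-0.40) and cdk5rap3 (-0.25) were lower, and cdk5 (0.52) and cdc42ep4a (0.56) higher. A second cdk8 probe set, with a mean signal of 267.55 beside 276.45 for the brighter, differed by -0.15 and was not called (adjusted p = 0.371, limma).

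In these 8 libraries 20 of the 81 genes (24.7%, against 27.5% of all probe sets) did not overlap between letters. The libraries W357B to W365B, outside the fit, did not overlap letter C for 14 of the 18 called genes (77.8%), beside 62.2% of all 3436 probe sets called between letters. Without W249C or W249B the count was 11. In all alternatives run, 11 of the 18 genes kept their call. The other 7 lost it without some single libraries: cdk8 without W248C, W249C, W248B or W249B, pold3 without W249C, W255C, W249B, W252B or W255B, and cdk5rap3 without any 1 of the 8. The calls of bub1ba, pola2 and cdc27 were lost without W248C, W249C, W255C, W248B, W249B or W255B, and that of cdc34b without W248C, W249C, W252C, W248B, W249B or W252B. The adjusted p of these 7 genes with 1 library left out reached at most 0.181 (limma). In this comparison pola2, cdc27, pold3, cdc34b and cdk5rap3 were named after their values were seen. The 3′ to 5′ ratio of the actin control probe sets, a measure of how far labelling ran, spanned 5.19 to 10.85 in letter C. It spanned 7.66 to 10.84 in W248B to W255B and, outside the fit, 5.74 to 9.03 in W357B to W365B. Both of these ranges lie within that of letter C only because of W248C, which held the 10.85. W249C, W252C and W255C held 5.19, 7.15 and 7.51, below all of W248B to W255B. The part of this ratio in the letter calls was not tested.

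**Figure D4:**
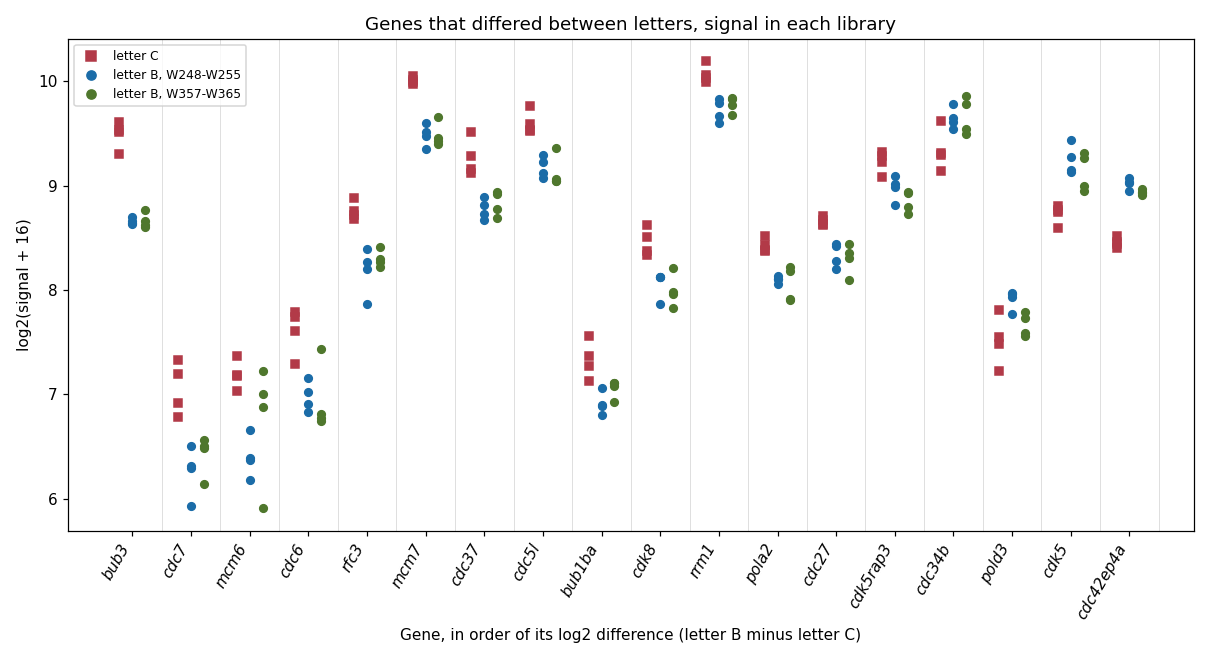
Signal, as log2(signal + 16), of the 18 genes that differed between letters, ordered by their difference from bub3 (-0.83) to cdc42ep4a (0.56). Red squares are letter C, blue circles W248B to W255B and green circles W357B to W365B, with 4 libraries each. For 14 of the genes the green circles do not overlap the red squares.

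Other genes of the pathway that the symbol pattern does not take were followed in lists. Of 31 tested genes of replication and S phase (45 listed) and 44 tested genes of mitosis (64 listed), 0 were called in any comparison other than the letter. Their medians for W252 and W255 against W248 and W249 were -0.05 and -0.06, beside -0.01 for all probe sets. Between letters, 9 of the 31 were called, 3 higher and 6 lower in letter B, and 4 of the 44, 1 higher and 3 lower. Those are shares of 29% and 9.09%, beside 29.6% of all probe sets. The higher ones, named after their values were seen, were e2f3 (0.53, adjusted p = 0.00604, limma), rb1 (0.48), uhrf1 (0.28) and kif4 (0.37). The lower ones include tk1, thymidine kinase (-0.75, adjusted p = 0.000419), the mismatch repair gene msh6 (-0.73), the lamin gene lmnb2 (-0.98, a call lost without W248C) and the proliferation marker mki67 (-0.44, adjusted p = 0.00497, limma), the last singled out after its values were seen.

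The list of cycle arrest and p53 genes was the 1 list of the pathway with calls by number. For the mean of W252 and W255 against that of W248 and W249, 3 of 23 tested genes rose and 0 fell, where 1.73% of all probe sets rose and 0.852% fell, and the list's median was 0.11. The antiproliferative gene tob1a held 597.5 in W248C, 965.3 in W248B, 792.8 in W249C and 918.6 in W249B, and 1240.6 in W252C, 1303.3 in W252B, 1009.6 in W255C and 1200.8 in W255B. All 4 W252 and W255 libraries lay above these others, and the rise was 0.55 (SE 0.095, adjusted p = 0.00382, limma). It held 1233.2 in W362B and 1189.9 in W365B, and 1005.9 in W357B and 951.8 in W358B. Without W249B the call was lost (the adjusted p over all alternatives ran from 0.00253 to 0.397).

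The transcription factor gene klf9, a target of glucocorticoid and thyroid hormone receptors in other vertebrates, rose by 0.53 (SE 0.069, adjusted p = 0.000343, limma). It held 2651.9 to 3164.5 in W252 and W255 and 1763.9 to 2380.4 in W248 and W249, and 2041.4 in W362B, 1433.3 in W365B, 1384.8 in W357B and 841.2 in W358B. In these last 4, the 2 cyp1a-high libraries (W362B and W365B) again lay above the other 2, though all 4 lay below W252 and W255. The third, btg2, a p53 target in mammals singled out after its values were seen, rose by 0.42 (SE 0.092, adjusted p = 0.0196), a call lost in 8 of 16 alternatives, among them leaving out W248C, W249C, W252C, W248B, W249B or W255B. For btg2, W362B and W365B held 1056.6 and 539.8, and W357B and W358B held 570.6 and 420.9, which overlap. The same 3 genes were called for W252 against W248 (beside 1.66% of all probe sets) and klf9 alone for W255 against W248 (beside 1.17%). Each of these 2 comparisons has 2 libraries a side. The tob1a call for W252 was lost without W248C or W252C, the klf9 call for W255 without W248C or W255C, and the btg2 call for W252 in 9 of 16 alternatives. By title in the 6 libraries, tob1a rose by 0.49 (adjusted p = 0.0316), a call lost in 9 of 15 alternatives. It was lost when the replicate block replaced the letter (adjusted p = 0.0762) and without any 1 of the 6 libraries (adjusted p from 0.0666 to 0.103, limma).

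Markers of tissues that hold dividing or abundant cells were read beside these counts. By number, 2.58% of all probe sets were called, 1.73% higher and 0.852% lower. Of the markers, 1 of 16 tested neural progenitor markers fell (ascl1b, -0.49, adjusted p = 0.0158, limma). Likewise 1 of 11 retinal margin markers fell (six3b, -0.42, adjusted p = 0.0489, limma), and 0 of 10 blood markers were called. The ascl1b call was lost in 7 of 16 alternatives, among them leaving out W248C, W249C, W255C, W248B or W249B (adjusted p from 0.0137 to 0.249 over all 16). That of six3b, named after its values were seen, was lost in 12 of 16, among them leaving out any 1 library but W252B. By title in the 6 libraries labelled DMSO or E2+TCDD, 1 of the 11 retinal margin markers was called, beside 1.57% of all probe sets. This was rx1, which rose (0.76, adjusted p = 0.0181, limma), a call lost in 6 of 14 alternatives. In the same fit 2 of 10 intestine markers fell, alpi.2 (-1.41, adjusted p = 4.2e-05, limma) and fabp6 (-0.995). So did 1 of 11 liver markers, fabp10a (-0.85). In the fit to all 12 libraries, alpi.2 was called for E2+TCDD against DMSO (adjusted p = 0.0176, limma), a call lost in 6 of 21 alternatives. The median of the 11 retinal margin markers was 0.02 by number and 0.14 by title in the 6 libraries. It was 0.20 for W357B to W365B against W248B to W255B, a split that coincides with the title in letter B. For rx1, the cyp1a-low W357B and W358B held 204.5 and 184.3, beside 178.2 in W362B and 224.5 in W365B. In the DMSO libraries it held 107.7 in W248B and 112.3 in W249B. In letter C, where number series does not differ, rx1 held 280.3 in W255C and 163.6 in W248C. The 1 tested germ cell marker, dnd1, was not called by number. For W252 against W248, where 1.66% of all probe sets were called, dnd1 rose by 0.91 (adjusted p = 0.0355, limma). That call was lost in 7 of 15 alternatives, among them leaving out W248C, W249C, W252C or W248B. Of 10 intestine markers (30% called by number), alpi.2 (-1.20) and fabp6 (-0.70) fell and tm4sf4 (0.43) rose. Of 11 liver markers (9.09% called by number), fabp10a fell (-0.56). Outside this fit, alpi.2 held 232.9 and 272.6 in the cyp1a-high W362B and W365B, and 335 and 261.8 in W357B and W358B. These overlap, as did fabp6 (783.3 and 1090.9, against 1442.8 and 878.8) and fabp10a (1865.5 and 1708.7, against 2969.6 and 1155.4). For tm4sf4, W362B and W365B lay higher, with 3363.8 and 3453.8 against 1926.1 and 1345.9. Between letters the same lists had 5 of 16, 4 of 11, 3 of 10, 1 of 1, 5 of 10 and 3 of 11 markers called in the order just given, beside 29.6% of all probe sets. The summed signal of the neural progenitor markers spanned 22805.6 to 25368.8 in letter C and 22466.3 to 24209.8 in letter B of the same numbers, and that of the retinal margin markers 4227 to 4483.2 and 3935.1 to 4071.5. These 2 ranges of the retinal margin markers do not overlap, but the other 4 letter B libraries, W357B to W365B, spanned 4236.2 to 4488.8 and overlap letter C. Much of the gap lies in 1 marker, tlcd3ba, with 891.3 to 1148.8 in letter C and 650.2 to 726.4 in W248B to W255B. The called markers of this list went both ways: tlcd3ba (-0.52), rx1 (-0.43) and rx2 (-0.57) were lower in letter B and col15a1b (0.61) was higher. The part of these cell types in the letter difference of the replication genes was not tested.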

How the data were processed

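Signal intensities were deposited as MAS5 values, 1 per probe set and not log-transformed, which the authors made in Affymetrix Expression Console (submitters' processing notes, no version stated). Trimmed means (2% off each side) of the 12 arrays lay within 0.00225% of their median, so the values were used as deposited, as log2(signal + 16). The 115 control probe sets were left out, as were 2 matching probe sets with several symbols and probe sets under the 25th percentile of mean log2 value, which left 11626. Symbols came from the platform table. Of 87 members, 86 matched a RefSeq table by Entrez ID and 0 symbols changed.

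Tests used limma 3.58.1 in R 4.3.3 (lmFit, eBayes with a variance trend, two-sided, Benjamini-Hochberg), and the fit was tested on simulated data. Array values carry no counts, so the number of arrays limits the precision. The series text calls replicates biological, but p-values measure only the spread between these libraries. Named genes were the core set, the members called (at most 12 a comparison), otherwise the 3 with the smallest p, the 3 brightest and dimmest, the 5 with the widest range and called list genes (at most 6 a comparison). Members and lists were chosen with earlier results of these data known.

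Deviations from group means correlated above 0.1 in all 18 pairs of libraries with the same replicate number, and in 0 of 18 once the letter was in the model. In every group replicate 1 is letter C and replicates 2 and 3 are letter B. These correlations therefore cannot tell a pairing by replicate number from the letter, and pairs with different replicate numbers were not compared. The letter term also makes the deviations of the letter C libraries sum to 0 in each probe set, which pushes their correlations down. The 0 of 18 was thus partly set by the fit. Alternatives were pseudocounts of 1 and 64, the 50th percentile or no filter, quantile normalisation, median centring, no variance trend, no letter or number term, the replicate block and leaving out each library. The sources used here name no genome build, so no positions are given.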

Additional observations from a re-analysis of the deposited data

Results flagged for a closer look

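In 48 groups of 4 to 10 libraries looked at for a value far from the rest, 1 was found, and chance alone gives about 1 in 20. Among the 4 letter B libraries whose number also occurs in letter C, the Mediator kinase gene cdk8 had a signal of 217.5 in W248B (labelled DMSO 2), where W249B, W252B and W255B held 262.7 to 263.6. The other 4 letter B libraries, W357B to W365B, held 210.5 to 280.6, so W248B does not stand apart among all 8. The gap made up 0.982 of the group's whole range, above Dixon's 95% critical value for 4 samples.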

How the results depend on the processing

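The count of called members was 0 of 81 in all 11 comparisons other than the letter, and it stayed 0 under every alternative run and without each library in turn, the lowest and highest count both being 0. With the replicate number as a block in place of the letter, the counts by title were 0 as well, and the block changed no call of a member. In letter B this block coincides with the cyp19a1b signal, 36.1 to 52.1 in replicate 2 and 256.4 to 287 in replicate 3. It thus takes up that difference along with the letter. Between letters the 18 calls became 11 to 17 when 1 library was left out, with 11 without E2 replicate 1 and 11 without DMSO replicate 3 (W249C and W249B), for which the cause beyond fewer libraries was not tested. Other settings gave 13 calls with the filter at the 50th percentile, 16 without a filter and 17 or 18 elsewhere. The 50th percentile filter left cdc7, mcm6, cdc6, bub1ba and pold3 untested. The 13 calls were the remaining genes of the 18, so no tested gene lost its call there. Of the 18 genes, 11 kept the call in all alternatives in which they were tested and 7 lost it in at least 1. No value of a named gene changed sign under an alternative. The call of klf9 by number was lost without the letter term, and that of tob1a without it, without the variance trend and without DMSO replicate 3. Members at low signal limit what can be measured, since 6 genes stayed under the filter.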
